A study of Homo sapiens with 2 samples.

Results

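The 10 genes described here are outputs and brakes of the NF-kB pathway. IL32 and IL18 are interleukins, CXCL1, CXCL2, CXCL3, CXCL16 and CCL20 are chemokines, TNFAIP3 and NFKBIA are feedback inhibitors, and RELB is a subunit of NF-kB itself. They were picked by symbol from the 52402 gene symbols in the deposited tables, and each stands on a single row there.

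NF-kB is a family of transcription factors that lie inactive in the cytoplasm, bound by inhibitor proteins of the IkB type, until a receptor for a microbial or inflammatory signal triggers the destruction of the inhibitor. The released factors enter the nucleus and switch on cytokines, chemokines and, as a brake, their own inhibitors. In the colon epithelium this programme is known for calling in neutrophils and lymphocytes, and it is often active in colorectal tumours.

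The cells were DLD1, a human colorectal adenocarcinoma line. One library has the genotype label HERV-R knockout, HERV-R being an endogenous retrovirus of the human genome, and it is set against a library of DLD1 cells labelled wild type. With 1 library per group the knockout cannot be tested, and every difference below is between these 2 libraries. Both carry the label of transfected cells and the same protocol, in which Cas9 and guide RNA vectors were delivered by lipofection and colonies were picked out with hygromycin. The sources used here do not say which vectors went into the control cells or whether a library stands for 1 clone.

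The knockout-labelled library held 16406308 counts and the control library 21881122. Values are CPM, counts scaled to a library total of 1000000. A fold divides the knockout-labelled CPM by the control CPM, or the reverse where a gene is called lower, and is given with an exact 95% interval for counting error only. ERV3-1, the gene taken as HERV-R, had 125 counts in the knockout-labelled library and 127 in the control, which is 7.62 CPM and 5.80 CPM, a fold of 1.31 (1.02 to 1.69). A count over a whole gene does not see a small edit, and since ERV3-1 RNA was not lower it does not check the label. Its neighbour ZNF117 had 46 counts in the knockout-labelled library and 0 in the control, where 0 allows up to 0.137 CPM. The readthrough gene ERV3-1-ZNF117 had 174 and 220 counts, a fold of 1.05 (0.860 to 1.29), and how reads were divided among these 3 overlapping symbols is uncertain. Most colorectal epithelial markers were present, with 9 of 12 at a mean of 1 CPM or more. EPCAM had 749.8 CPM in the knockout-labelled library and 701 CPM in the control. The keratin KRT18 was 2.85-fold lower, KRT19 2.44-fold lower and KRT8 2.21-fold lower. CDX2 had 298 CPM in the knockout-labelled library and 99.4 CPM in the control. CDX1 was at 0 in both, as was KRT20, whose symbol stands on 2 rows. LGALS4 and GPA33 were low, with 8 and 31 counts in the knockout-labelled library and 8 and 67 in the control. Of 16 myeloid and lymphoid markers, 9 were at 0 in both libraries, among them CD163 and CD3D, and the 16 summed to 3.84 CPM in the knockout-labelled library and 5.62 CPM in the control. Of these, CD68 had 0.914 and CD8A 2.26 CPM in the knockout-labelled library, against 2.47 and 2.74 CPM in the control. The 10 fibroblast markers summed to 8.59 and 20.3 CPM, mostly ACTA2 (5.79 and 14.5 CPM), with 5 at 0, among them COL1A2, DCN and PDGFRA. The 8 endothelial markers summed to 7.62 and 10.3 CPM, mostly ESAM, with 3 at 0. The part of these markers in the values below was not tested. In a bulk culture, fewer cells that make an RNA and less of it per cell cannot be told apart.

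The 10 genes did not all lie on the same side of the control. In the knockout-labelled library IL32, IL18, CXCL16 and RELB were lower by 2-fold or more, CXCL2 was higher by 2-fold or more, and the feedback inhibitors TNFAIP3 and NFKBIA close to their control levels. The size rule behind these words is a log2 ratio of 1 and above, or -1 and below, after 1 CPM was added to both libraries, and it was applied to genes whose mean reached 1 CPM. Of the 10 genes, 9 reached that mean; CCL20 did not, and CXCL1 and CXCL2 did so through the knockout-labelled library alone, so their place among the genes compared depended on being higher there. Among the 9, 4 were lower, 1 was higher and 4 lay between, and their median log2 ratio was 0.22. Over all 12644 genes compared, 5.69% were lower by that rule and 6.78% higher, with a median of 0.12. The members were chosen with earlier results of these data known. Their counts beside these shares are thus a description and no support. The members' median is the value of NFKBIA, with 4 genes below -1 and 4 above it.

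**Figure D1:**
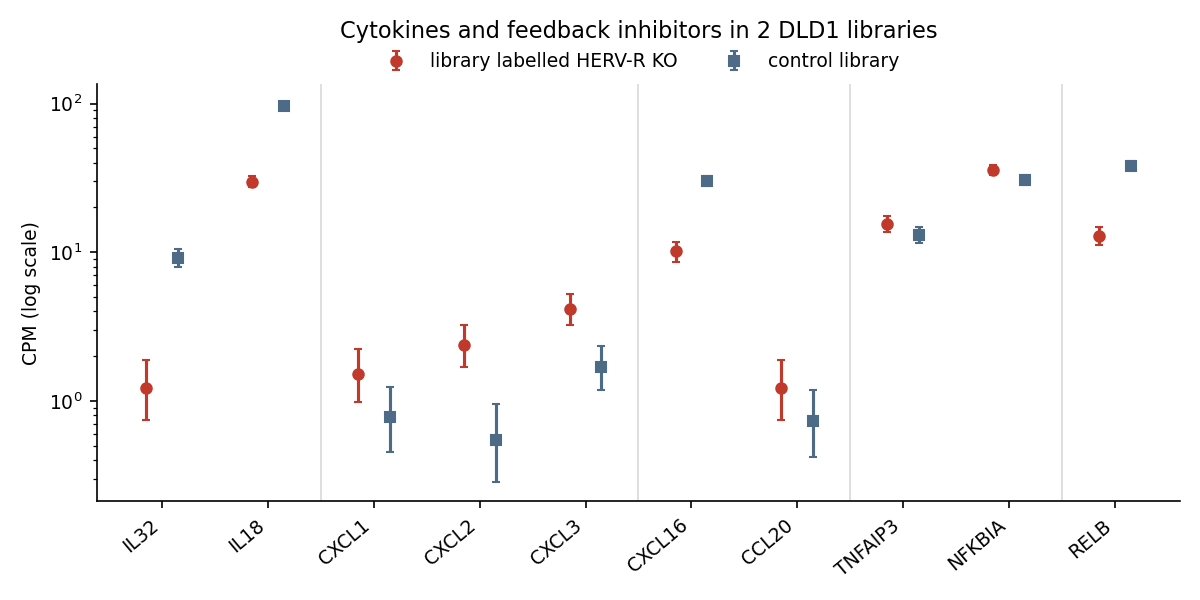
CPM on a log axis of the 10 genes in the library labelled HERV-R KO (circles) and the control library (squares), with exact 95% Poisson intervals for counting error. IL32, IL18, CXCL16 and RELB sit lower in the knockout-labelled library with intervals apart, CXCL2 and CXCL3 sit higher with intervals apart, and the intervals of CXCL1, CCL20, TNFAIP3 and NFKBIA overlap.

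**Figure D2:**
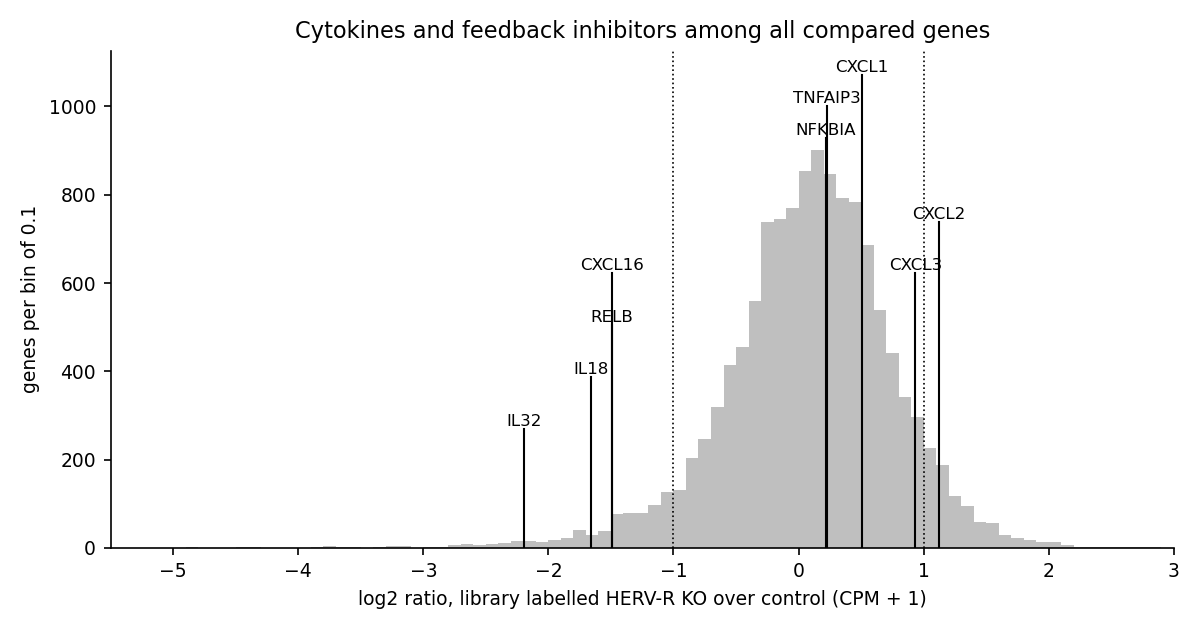
Histogram of log2 ratios (CPM + 1, knockout-labelled over control) for all 12644 genes compared, in bins of 0.1, with the 9 compared members marked by lines whose height has no meaning and the 2-fold rule dotted. IL32, IL18, RELB and CXCL16 lie in the lower tail, NFKBIA and TNFAIP3 near the peak, and CXCL3 and CXCL2 either side of the upper line.

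IL32, a proinflammatory cytokine made by epithelial and immune cells, is the first of the lower genes. It had 20 counts (1.22 CPM) in the knockout-labelled library and 201 counts (9.19 CPM) in the control, 7.54-fold lower (4.75 to 12.6). Its log2 ratio of -2.20 stood at position 85 from the lowest of the 12644 genes, but was -1.19 with a pseudocount of 5, closer to 0 than those of IL18 (-1.54), RELB (-1.27) and CXCL16 (-1.22). IL18 is made by colon epithelial cells as an inactive precursor that caspases cut. It had 490 counts (29.9 CPM) in the knockout-labelled library, against 2113 counts (96.6 CPM) in the control, 3.23-fold lower (2.93 to 3.57), at position 208 from the lowest. Both genes were thus far down the lower tail. IL32 lies on chromosome 16 (3065297 to 3082192, plus strand) and IL18 on chromosome 11 (112143251 to 112164117, minus strand; GRCh38, GENCODE 29). Their nearest compared neighbours did not share the difference: MMP25-AS1 and ZNF205 beside IL32 were 1.15-fold and 1.91-fold higher, and SDHD and PTS beside IL18 were 1.12-fold and 1.01-fold higher.

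Of 17 genes for inflammasomes, IL18 maturation and CXCL16 shedding, 8 were compared, of which 1 was lower, 0 higher and 7 between, with a median of -0.42. The lower one was GSDMB, a gasdermin (pore-forming) family member, with 5.36 CPM in the knockout-labelled library and 12.2 CPM in the control. Its log2 ratio of -1.05 was -0.73 with a pseudocount of 5, short of the rule. CASP1, the protease best known for cutting the IL18 precursor, had 0 counts in the knockout-labelled library and 2 in the control. Zero counts allow up to 0.183 CPM in that library, counted as 3 counts. CASP8 and CASP4 were well detected. CASP8 had 47.5 CPM in the knockout-labelled library and 31.6 CPM in the control, a fold of 1.51 (1.36 to 1.67). CASP4 had 40.4 and 52.0 CPM, 1.29-fold lower. CASP5, with 14 counts in the knockout-labelled library and 25 in the control, was not compared. IL18BP, the secreted protein that traps IL18, had 2.99 CPM in the knockout-labelled library and 6.03 CPM in the control, which is 2.02-fold lower (1.44 to 2.86) but short of the rule with 1 CPM added (-0.82).

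CXCL1, CXCL2 and CXCL3 attract neutrophils through the receptor CXCR2 and sit close together on chromosome 4 (GRCh38: CXCL1 73869393 to 73871242, plus strand; CXCL3 74036589 to 74038807 and CXCL2 74097035 to 74099293, minus strand). All had more CPM in the knockout-labelled library, from low counts. CXCL2 had 39 counts (2.38 CPM) there and 12 counts (0.548 CPM) in the control, 4.33-fold higher (2.22 to 9.09). CXCL3 had 68 counts (4.14 CPM) in the knockout-labelled library and 37 counts (1.69 CPM) in the control, 2.45-fold higher (1.62 to 3.76), though the added 1 CPM put its log2 ratio at 0.93. CXCL1 had 25 counts (1.52 CPM) in the knockout-labelled library and 17 counts (0.777 CPM) in the control, a fold of 1.96 (1.02 to 3.87), whose lower bound fell to 0.936 with TMM scaling (trimmed mean of M values, which sets aside the most extreme genes). Summed, the 3 genes had 132 counts (8.05 CPM) in the knockout-labelled library and 66 counts (3.02 CPM) in the control, 2.67-fold higher (1.97 to 3.64). The sum rests on fewer than 200 reads.

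The promoters of these 3 genes resemble each other, with identities of 69.8% (CXCL1 and CXCL2), 82.5% (CXCL1 and CXCL3) and 73.7% (CXCL2 and CXCL3) over the RefSeq windows. They are shown beside those of NFKBIA and IL32 because all 5 hold a match to the kappa B consensus, the DNA element that NF-kB binds, although the genes lay on different sides of the control. Each line gives 130 bases before the start of transcription and 20 after it, 5′ to 3′ on the gene's strand (RefSeq, GRCh38.p14); capitals mark matches to the consensus on either strand, joined where a match on 1 strand overlaps a match on the other.
CXCL1 promoter (chr4:73869263-73869412, plus strand): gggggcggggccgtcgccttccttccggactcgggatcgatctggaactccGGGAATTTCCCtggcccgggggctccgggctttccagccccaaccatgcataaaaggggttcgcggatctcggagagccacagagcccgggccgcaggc
CXCL2 promoter (chr4:74099176-74099325, minus strand): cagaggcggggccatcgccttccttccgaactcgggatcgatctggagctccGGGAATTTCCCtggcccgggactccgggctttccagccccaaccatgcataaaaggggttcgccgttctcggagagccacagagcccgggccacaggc
CXCL3 promoter (chr4:74038670-74038819, minus strand): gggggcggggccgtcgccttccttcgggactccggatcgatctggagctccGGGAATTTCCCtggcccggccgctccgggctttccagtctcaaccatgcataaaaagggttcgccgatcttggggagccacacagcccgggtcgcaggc
NFKBIA promoter (chr14:35404730-35404879, minus strand): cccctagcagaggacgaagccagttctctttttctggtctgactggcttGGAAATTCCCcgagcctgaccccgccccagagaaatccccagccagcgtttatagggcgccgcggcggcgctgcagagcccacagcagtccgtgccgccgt
IL32 promoter (chr16:3065273-3065422, plus strand): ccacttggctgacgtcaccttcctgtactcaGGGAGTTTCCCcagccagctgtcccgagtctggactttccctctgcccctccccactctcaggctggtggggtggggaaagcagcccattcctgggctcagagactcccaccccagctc

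In CXCL1, CXCL2 and CXCL3 the marked element was the same, GGGAATTTCC, at 79, 78 and 79 bases before the start. NFKBIA held it on the other strand, 81 bases before its start. IL32 held the related gggagtttcc 99 bases before the start of the more upstream of its 2 RefSeq promoters. Of the 10 genes, 7 have a promoter in the RefSeq table and all 7 had a consensus match in the window from 250 bases before to 50 after the start, TNFAIP3 and CCL20 included. IL18, CXCL16 and RELB, all among the lower genes, have no promoter there and were not searched. IL32 was thus the only lower gene searched. IL32 was counted through its more upstream promoter, and its other promoter had no match. The consensus was found in 10.8% of 27305 promoters of this length, and GGGAATTTCC in 0.161%, on either strand. Among the 9370 promoters of compared genes the shares were 13.1% and 0.245%. The genes were selected as known NF-kB targets, so this is a description of the set. CXCL2, NFKBIA and IL32, all with a match, were 4.33-fold higher, 1.17-fold higher and 7.54-fold lower in the knockout-labelled library.

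The coding sequences of the 3 CXC genes are also alike, with identities of 93.5% (CXCL1 and CXCL2), 90.7% (CXCL1 and CXCL3) and 94.4% (CXCL2 and CXCL3) over 324 bases. The opening 120 coding bases (GRCh38 chromosome 4, GENCODE 29 transcripts) are given to show how little separates them, with capitals at the 12 positions where the 3 are not all the same.
CXCL1 coding bases: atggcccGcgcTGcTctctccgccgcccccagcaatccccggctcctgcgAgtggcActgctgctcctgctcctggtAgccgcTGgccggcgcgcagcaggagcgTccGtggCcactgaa
CXCL2 coding bases: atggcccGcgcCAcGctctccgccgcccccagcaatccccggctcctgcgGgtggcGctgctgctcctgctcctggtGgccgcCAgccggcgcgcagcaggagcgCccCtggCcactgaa
CXCL3 coding bases: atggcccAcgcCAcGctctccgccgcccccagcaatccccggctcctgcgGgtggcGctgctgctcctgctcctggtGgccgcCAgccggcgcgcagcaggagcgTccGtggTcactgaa

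Of all overlapping 50-base windows of a transcript, 60 of 1048 (5.73%) in CXCL1, 108 of 1169 (9.24%) in CXCL2 and 54 of 1026 (5.26%) in CXCL3 occurred exactly in another of CXCL1, CXCL2, CXCL3, CXCL5, CXCL6 and CXCL8. Reads from these windows can be lost or split between the genes, so the division among the 3 is uncertain. Windows shared with CXCL5, CXCL6 or CXCL8 were not counted apart, so their sum may be affected too. CXCL5, another ligand of CXCR2, had 4346 counts (265 CPM) in the knockout-labelled library and 4975 counts (227 CPM) in the control, a fold of 1.17 (1.12 to 1.21). CXCL8 had 42 counts (2.56 CPM) and 38 counts (1.74 CPM), a fold of 1.47 (0.928 to 2.35). Of the 14 genes of the cluster list, 10 were compared, and CXCL2 alone passed the rule, with 0 lower. MTHFD2L, the compared gene next to CXCL2, had 35 counts in the knockout-labelled library and 80 in the control, 1.71-fold lower.

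CXCL16, a membrane-bound chemokine that is shed by ADAM10 and draws T cells bearing CXCR6, stood on the other side of the control. It had 166 counts (10.1 CPM) in the knockout-labelled library and 661 counts (30.2 CPM) in the control, 2.99-fold lower (2.51 to 3.56), at position 273 from the lowest. The gene lies on chromosome 17 (4733526 to 4739922, minus strand) and shares 85 exon bases with MED11 on the opposite strand. MED11 had 140 counts in the knockout-labelled library and 173 in the control, a fold of 1.08, and the sources used here do not say whether the authors counted by strand. PSMB6, on the other side, had 102 CPM in the knockout-labelled library and 103 CPM in the control. ADAM10 had 217 and 334 CPM, 1.53-fold lower (1.47 to 1.60), and ADAM17 94.8 and 97.8 CPM. CCL20 (chromosome 2, 227805739 to 227817564, plus strand), which attracts cells with CCR6 and is induced in gut epithelium by microbial signals, had 20 counts (1.22 CPM) in the knockout-labelled library and 16 counts (0.731 CPM) in the control. Its fold of 1.67 had an interval from 0.821 to 3.44, so no difference was detectable at this depth.

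Receptors for the secreted members were at the edge of detection. Of the 7 receptor genes listed, 0 reached a mean of 1 CPM. CCR6 had 11 counts in the knockout-labelled library and 8 in the control, CXCR6 10 and 5, and CXCR2 6 and 10, while CXCR1, IL18RAP and ACKR1 had 0 in both.

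The feedback inhibitors differed little between the libraries. NFKBIA (chromosome 14, 35401511 to 35404749, minus strand) encodes IkB-alpha, which holds NF-kB in the cytoplasm and is itself induced by NF-kB. It had 588 counts (35.8 CPM) in the knockout-labelled library and 671 counts (30.7 CPM) in the control, a fold of 1.17 (1.04 to 1.31). TNFAIP3 (chromosome 6, 137867188 to 137883312, plus strand) encodes A20, a ubiquitin-editing enzyme that shuts off signalling from the TNF receptor. It had 254 counts (15.5 CPM) in the knockout-labelled library and 286 counts (13.1 CPM) in the control, a fold of 1.18 (0.996 to 1.41). Their log2 ratios of 0.22 and 0.23 compare with the median of 0.12 over all genes. That median shifts by -0.10 to -0.12 with TMM, upper quartile and median-of-ratios scaling, and with TMM both intervals span 1, at 1.07 (0.960 to 1.20) for NFKBIA and 1.09 (0.916 to 1.29) for TNFAIP3. The proportion between the 2 inhibitors was alike in both libraries: NFKBIA had 2.31 counts for each count of TNFAIP3 in the knockout-labelled library (1.99 to 2.69) and 2.35 in the control (2.04 to 2.70).

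RELB, the partner of p52 in the non-canonical arm of the pathway and also an NF-kB target, had 212 counts (12.9 CPM) in the knockout-labelled library and 835 counts (38.2 CPM) in the control. It was 2.95-fold lower (2.54 to 3.45), at position 270 from the lowest. RELB lies on chromosome 19 (45001430 to 45038198, plus strand), between CLPTM1 (a fold of 1.38) and CLASRP (0.991). Ratios between genes inside a library do not depend on how the library is scaled. There were 0.361 counts of RELB per count of NFKBIA in the knockout-labelled library (0.307 to 0.423), against 1.24 in the control (1.12 to 1.38). Per count of RELA, the main activating subunit, RELB had 0.108 (0.0936 to 0.125) and 0.355 (0.327 to 0.384), while NFKBIA had 0.301 (0.274 to 0.330) and 0.285 (0.261 to 0.311). IL18 had 0.833 counts per count of NFKBIA in the knockout-labelled library (0.738 to 0.941) and 3.15 in the control (2.89 to 3.44). RELB was thus lower against both NFKBIA and RELA and IL18 was lower against NFKBIA, while the intervals of NFKBIA per RELA overlapped.

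**Figure D3:**
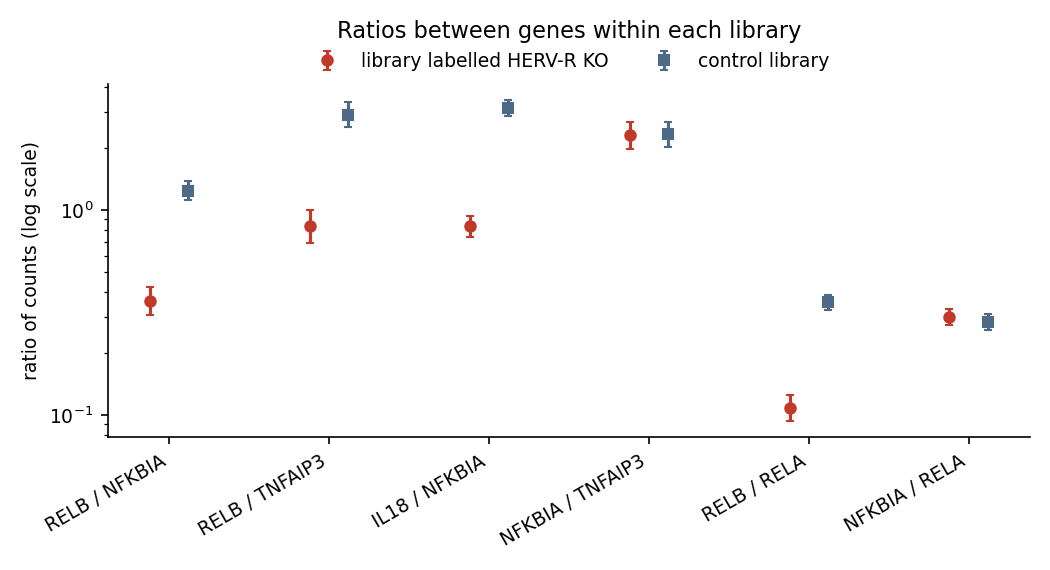
Ratios of counts between pairs of genes inside the library labelled HERV-R KO (circles) and the control library (squares), on a log axis, with exact 95% intervals for counting error. RELB per NFKBIA, per TNFAIP3 and per RELA, and IL18 per NFKBIA, are lower in the knockout-labelled library with intervals apart, while the intervals of NFKBIA per TNFAIP3 and NFKBIA per RELA overlap.

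Levels of different genes were compared only after division by exon length (CPM per kilobase over all exons annotated in GENCODE 29). In the knockout-labelled library NFKBIA was the highest of the 10 by this length, at 15.1 CPM per kilobase, followed by IL18 at 11.4 and RELB at 4.26. All exons of IL18 cover 2628 bases, against 1147 in its longest coding transcript. For NFKBIA the lengths are 2373 and 1558 bases. Which of these genes leads in that library therefore depends on the length chosen, and places of other genes may depend on it too. In the control IL18 led at 36.7 CPM per kilobase, followed by NFKBIA at 12.9 and RELB at 12.6, and the counting intervals of NFKBIA and RELB overlapped. IL32 was last in the knockout-labelled library, at 0.380 CPM per kilobase, while in the control it stood between CXCL16 and TNFAIP3, at 2.86. Its interval overlapped that of CCL20 in the knockout-labelled library and that of TNFAIP3 in the control, so neither place is resolved from that neighbour. CXCL1, CXCL2, CXCL3 and CCL20 lay between 0.765 and 1.87 CPM per kilobase in the knockout-labelled library and between 0.366 and 0.762 in the control, and neighbours in their order had overlapping intervals in both.

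The list of NF-kB subunits and IkB proteins includes the members RELB and NFKBIA. Of its 11 genes, 10 were compared, of which 2 were lower, 1 higher and 7 between, with a median of 0.18. NFKB2, whose product is cut to p52, the partner of RELB, had 1082 counts (66.0 CPM) in the knockout-labelled library and 3239 counts (148 CPM) in the control, 2.24-fold lower (2.09 to 2.41). RELB was the other lower gene. NFKBIZ, a nuclear IkB protein, had 123 counts (7.50 CPM) in the knockout-labelled library and 70 counts (3.20 CPM) in the control, 2.34-fold higher (1.73 to 3.19), but its log2 ratio of 1.02 was under the rule with TMM (0.92), the upper quartile (0.93), the median of gene ratios (0.91) and a pseudocount of 5 (0.61). Among subunits between the limits, NFKB1, the precursor of p50, had 64.9 CPM in the knockout-labelled library and 33.9 CPM in the control, a fold of 1.92 (1.74 to 2.11). RELA had 119 and 108 CPM, a fold of 1.11 (1.04 to 1.18), which was 1.02 (0.959 to 1.08) with TMM. BCL3, an atypical IkB protein, had 21.0 and 38.6 CPM, 1.83-fold lower (1.62 to 2.09).

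Of 27 listed genes of the IkB kinase complex and its adaptors, 26 were compared and 0 passed the rule in either direction, with a median of 0.19. TAB1, an adaptor of the kinase TAK1, had 38.3 CPM in the knockout-labelled library and 19.1 CPM in the control, a fold of 2.01 (1.77 to 2.28), and passed the rule with a pseudocount of 0.1. With TMM and with the median of gene ratios, 1 was lower, RBCK1. RBCK1, a subunit of the linear ubiquitin ligase, had 249 CPM in the knockout-labelled library and 461 CPM in the control, and the kinase IRAK1 had 202 and 124 CPM. Of 12 genes of the A20 group and related ubiquitin-editing inhibitors, 1 was higher, 0 lower and 11 between, with a median of 0.23. TNIP3, which binds A20, had 59 counts (3.60 CPM) in the knockout-labelled library and 26 counts (1.19 CPM) in the control, 3.03-fold higher (1.88 to 5.00), with a log2 ratio of 1.07 that was 0.99 with TMM. Of 21 receptors that feed NF-kB, 15 were compared, of which 3 were lower, 0 higher and 12 between, with a median of -0.17. TNFRSF1B, a TNF receptor, was 2.45-fold lower (21.2 CPM in the knockout-labelled library, 51.7 CPM in the control). TNFRSF12A, the receptor for TWEAK, was 2.16-fold lower and the death receptor TNFRSF21 2.02-fold lower. The log2 ratio of TNFRSF21, -1.01, was -0.98 with a pseudocount of 5, short of the rule.

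Among the genes compared, 7 of 11 other chemokines and cytokines and 12 of 18 other NF-kB targets had a log2 ratio below 0. Over all 12644 genes compared, 5304 lay below 0 and 7340 above. By the size rule, 5.69% of all genes compared were lower and 6.78% higher. Over all genes of each list, compared or not, the median was 0 for the cytokines and -0.02 for the targets. These medians include genes with 0 counts in both libraries, 11 of 32 cytokines and 7 of 28 targets. The added CPM gives such genes a log2 ratio of exactly 0, so these medians say little about the levels. Of 32 other chemokines and cytokines, 11 were compared, of which 4 were lower, 1 higher and 6 between, with a median of -0.87. CX3CL1, a membrane-bound chemokine that like CXCL16 is shed by ADAM proteases, had 57 counts (3.47 CPM) in the knockout-labelled library and 597 counts (27.3 CPM) in the control, 7.85-fold lower (5.98 to 10.5). LIF was 4.90-fold lower (4.18 to 5.76) and IL15 2.62-fold lower (1.98 to 3.52). CSF2, with 4 counts in the knockout-labelled library and 54 in the control, was 10.1-fold lower (3.73 to 38.5). With a pseudocount of 5 the log2 ratios of IL15 and CSF2 were -0.78 and -0.51, short of the rule. IL7 was the higher one, with 34 counts in the knockout-labelled library and 8 in the control. CSF2 and IL7 were each under 1 CPM in one library, so they entered the comparison only through the library where they were high, and their place in these counts is no support. Of 28 other NF-kB targets, 18 were compared, of which 6 were lower, 0 higher and 12 between, with a median of -0.56. The acute-phase protein LCN2 was 118-fold lower (50.5 to 365), from 5 counts in the knockout-labelled library and 789 in the control. C3 was 11.8-fold lower, the urokinase receptor PLAUR 6.94-fold lower and the stress gene GADD45B 3.57-fold lower. The other lower targets were TNFAIP2, with 3 counts in the knockout-labelled library and 51 in the control, and NFKB2, which is also among the subunits. The log2 ratio of TNFAIP2 was -0.50 with a pseudocount of 5, short of the rule. LCN2, C3 and TNFAIP2 were under 1 CPM in the knockout-labelled library and were likewise compared only through the control. Their place in the count and the median of this list is no support either. Not all targets were low: ICAM1 had 34.3 CPM in the knockout-labelled library and 35.6 CPM in the control, and BIRC3 57.7 and 52.3 CPM.

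**Figure D4:**
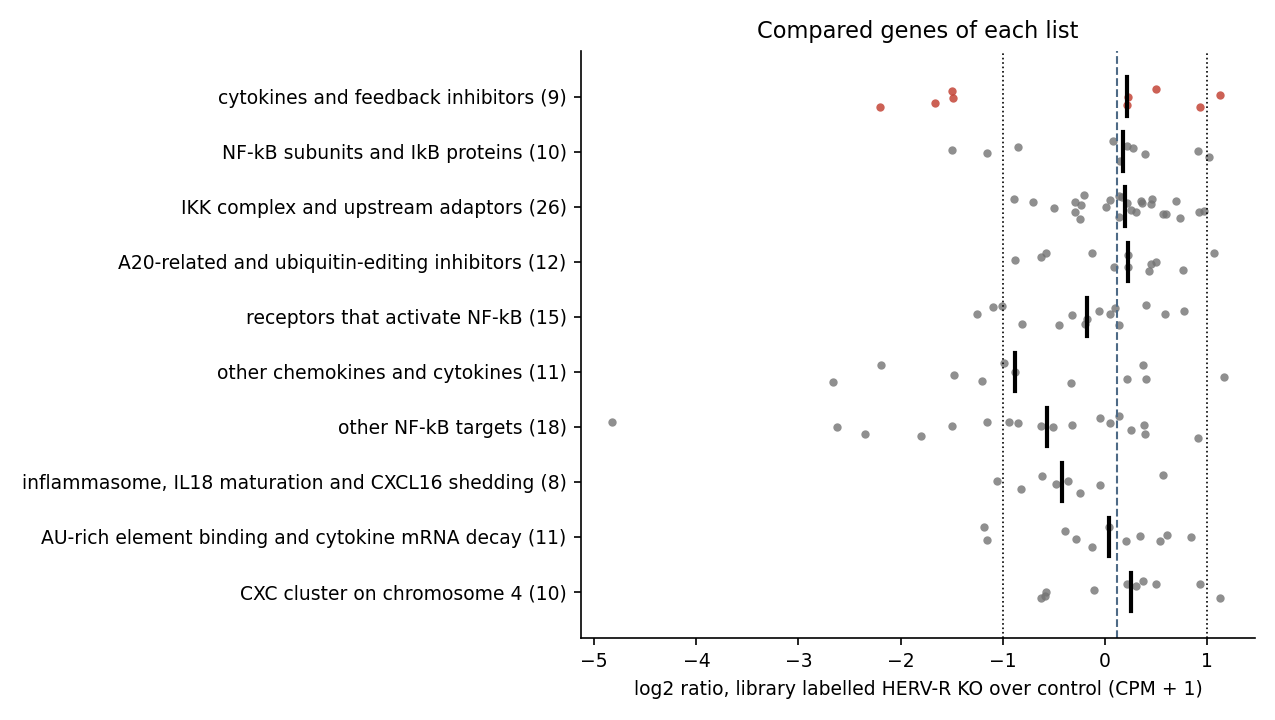
Log2 ratio (CPM + 1, knockout-labelled over control) for each compared gene of 10 lists, with the number of genes compared in brackets, list medians as black bars, the median of all 12644 genes as a dashed line and the 2-fold rule dotted; vertical scatter within a row has no meaning. Medians of the cytokine and other target lists (-0.87 and -0.56) lie left of the dashed line at 0.12, while the A20 group and the kinase complex (0.23 and 0.19) lie close to it. The lists of the members, the CXC cluster, the cytokines and the other targets include genes compared only through the library where they were high. Some genes stand in more than 1 list.

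The members also differ in the sequence elements of their mRNA tails. AU-rich elements are short motifs in the 3′ untranslated region that mark cytokine mRNAs for decay by ZFP36 proteins. In the longest coding GENCODE 29 transcript, TTATTTATT was present in that region in CXCL1 (3 times), CXCL2 (5 times), CXCL3 and TNFAIP3 (1 each), and absent from the other 6 genes. Among 11060 compared genes with such a region, 8.23% had it. The shorter ATTTA, which TTATTTATT contains, was absent only from IL32, IL18 and RELB among the 10, and 68.6% of the 11060 genes had it. The 3 members with no ATTTA were all among the lower genes, while CXCL16, with 1, was lower as well. These 3 also had the shortest such regions of the 10: 196 bases in IL32, 345 in IL18 and 404 in RELB. CCL20 came next with 451. A short region has less room for a motif, and length was not allowed for. Of 11 genes that bind such elements or drive cytokine mRNA decay, 2 were lower, 0 higher and 9 between, with a median of 0.05. ZFP36 had 478 counts (29.1 CPM) in the knockout-labelled library and 1440 counts (65.8 CPM) in the control, 2.26-fold lower (2.04 to 2.51), and ZFP36L1 178 and 405 CPM, 2.28-fold lower (2.18 to 2.37). Whether these values bear on the chemokines was not tested.

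Some listed genes could not be read from these tables. Of 222 listed genes, 45 had 0 counts in both libraries, and 10 of these have a symbol on more than 1 row, among them TNF, LTB and IER3, where reads that map to several copies can be lost. Their zeros say nothing of their level. IL6, IL1B and CXCL10, each on 1 row, also had 0 counts in both libraries.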

How the data were processed

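RNA was sequenced from 2 DLD1 cultures, 1 library labelled HERV-R knockout and 1 control, after Trizol extraction and a directional library kit, per the labels' protocols. The authors deposited whole-number counts per gene symbol with no normalization; reads were aligned with TopHat to GRCh38, per the submitters' processing notes. The sources used here give no version, counting program, annotation, strand setting or filter. Each table has 58173 rows.

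Rows of 1 symbol were summed and scaled to CPM by the column total. Log2 ratios used a pseudocount of 1 CPM, which understates changes of low genes, and genes whose mean reached 1 CPM were compared at a size rule of 2-fold. Intervals are Clopper-Pearson for ratios, conditional on the summed count, and Poisson for levels, both at 95% and for counting error only; 0 counts were taken to allow 3. With 1 library per group no test was run. The ratio and interval code was tested on simulated data with 200 changed genes. Genes named are the members, their nearest compared neighbours and, per list, up to 4 past the rule or else the 2 most abundant; others were chosen after their values were seen. The members and the 15 lists were chosen with earlier results of these data known. Sequences are from RefSeq (GRCh38.p14) and GENCODE 29. Alternatives were other pseudocounts, filters, size rules, row handling and scalings with edgeR 4.0.16 and DESeq2 1.42.0. Software was R 4.3.3, Python 3.11.15, pandas 2.3.3, scipy 1.17.1 and matplotlib 3.10.9.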

Additional observations from a re-analysis of the deposited data

How the results depend on the processing

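Under all 11 alternatives IL32 and IL18 stayed lower by the size rule in use; CXCL16 and RELB did so under all but the 3-fold rule, where 2 members were lower instead of 4. The higher count of 1 (CXCL2) became 2 with a pseudocount of 0.1 and with a 1.5-fold rule, each time with CXCL3 added. It became 0 with a pseudocount of 5, with a minimum mean of 5 CPM and with a 3-fold rule. The median log2 ratio of the members was 0.22, and -1.49 with a minimum mean of 5 CPM, which leaves 6 genes and none of CXCL1, CXCL2 and CXCL3; in the other alternatives it ran from 0.09 to 0.22. None of the 79 values of single members reversed from past the rule in one direction to the other sign, and 63 lay within the counting interval of the fold.

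Over all genes, 857 higher and 719 lower (54.4% higher) became 605 and 873 (40.9%) with TMM, 630 and 852 (42.5%) with the upper quartile and 593 and 886 (40.1%) with the median of gene ratios. The numbers were 426 and 371 with a pseudocount of 5, 2567 and 1674 at 1.5-fold, and 118 and 229 at 3-fold. Of 330 counts for the other lists, 48 differed by more than 1.5 times.

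No paired analysis was possible because each group has 1 library. CXCL1, CXCL2, CXCL3 and CCL20 rest on 12 to 68 counts per library, which limits the precision of their folds.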
